A study of Mus musculus with 48 samples.

Results

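The genes described here encode the extracellular matrix of the liver, the enzymes and signals that build and remodel it, and the cytoskeletal and vitamin A genes of hepatic stellate cells. They were taken from a list of 38 genes, each represented by its probe set with a single gene symbol and the highest mean over the arrays. Of these, 37 had such a probe set and all 37 passed the filter on low means, among 22180 genes measured and 16926 tested; Fbn1 had none, and Ctgf is given under its current symbol Ccn2. The livers came from 48 male and female mice aged 15 months that had eaten a single diet ad libitum from 3 weeks of age. The diets varied in their shares of protein, carbohydrate and fat and in energy level. Sex per mouse was not among the labels used here. Per the design text the mice harvested came from separate cages.

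A diet is written here as its energy level and its protein/carbohydrate/fat shares in percent. High energy diets were 5/20/75 (2 mice), 5/48/48 (4), 5/75/20 (4), 14/29/57 (4), 14/57/29 (2), 23/38/38 (3), 23/65/12 (2), 33/20/47 (2), 33/47/20 (2), 42/29/29 (1) and 60/20/20 (3). Medium energy diets were 14/29/57 (1), 14/57/29 (2), 23/38/38 (3), 33/20/47 (3), 33/47/20 (2) and 42/29/29 (3). Low energy diets were 23/38/38 (1), 42/29/29 (1) and 60/20/20 (3). In all, 10 mice ate 5% protein, 9 each ate 14%, 23% and 33%, 5 ate 42% and 6 ate 60%. All mice on 5% protein were on high energy diets, so low protein was not measured at the other energy levels.

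Hepatic stellate cells lie between the sinusoidal endothelium and the hepatocytes and store vitamin A as retinyl esters, which the enzyme encoded by Lrat makes. When activated they lose these stores, take on contractile proteins such as smooth muscle actin (Acta2) and secrete fibrillar collagen, and TGF-beta is the classic signal that drives them to do so. The liver matrix itself joins fibrillar collagens (types I, III and V), sheet-forming basement membrane collagens (type IV), bead-like type VI microfibrils, glycoproteins and small proteoglycans, and it is turned over by matrix metalloproteases held in check by their tissue inhibitors, the Timps. Hepatocytes make the plasma form of fibronectin, so Fn1 in liver is not a stellate cell gene alone. The arrays measured whole liver, in which a change in the number of cells of a type and a change in RNA per cell cannot be told apart.

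Start regions were looked up for the members because several of them moved together over the mice. RefSeq held the 250 bases before an annotated start for 23 of the 37 genes, in 25 windows, on GRCm38.p6. Those of 4 members, Col1a2, Col3a1, Mmp14 and Tgfb1, are shown 5′ to 3′ on the gene's strand, with matches to 4 short motifs in capitals. The motifs are the TATA box (TATAAA), the box named for its letters (CCAAT), the GC box (GGGCGG) and the core of the SMAD-binding element (CAGAC). Each was searched on both strands.
Col1a2, chr6:4505368-4505617, plus strand: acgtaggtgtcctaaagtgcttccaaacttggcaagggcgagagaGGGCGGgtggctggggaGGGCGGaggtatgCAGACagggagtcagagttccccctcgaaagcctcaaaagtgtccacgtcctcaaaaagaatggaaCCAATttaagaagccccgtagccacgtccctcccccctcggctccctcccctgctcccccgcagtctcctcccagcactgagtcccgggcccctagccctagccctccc
Col3a1, chr1:45311288-45311537, plus strand: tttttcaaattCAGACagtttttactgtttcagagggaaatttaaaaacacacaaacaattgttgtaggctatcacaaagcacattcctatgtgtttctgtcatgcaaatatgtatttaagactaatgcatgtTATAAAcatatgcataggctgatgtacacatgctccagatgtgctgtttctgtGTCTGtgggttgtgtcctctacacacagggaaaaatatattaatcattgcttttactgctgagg
Mmp14, chr14:54431348-54431597, plus strand: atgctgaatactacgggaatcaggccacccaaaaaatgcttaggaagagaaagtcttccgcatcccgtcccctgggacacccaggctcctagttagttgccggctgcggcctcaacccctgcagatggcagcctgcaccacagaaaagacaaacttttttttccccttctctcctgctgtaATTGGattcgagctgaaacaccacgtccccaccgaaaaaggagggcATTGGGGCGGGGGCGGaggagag
Tgfb1, chr7:25686752-25687001, plus strand: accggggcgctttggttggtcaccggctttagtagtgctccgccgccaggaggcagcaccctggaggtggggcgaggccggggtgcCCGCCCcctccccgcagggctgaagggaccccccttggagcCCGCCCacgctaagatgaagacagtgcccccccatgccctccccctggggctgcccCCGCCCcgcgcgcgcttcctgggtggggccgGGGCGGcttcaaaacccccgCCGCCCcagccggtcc
No other RefSeq gene overlaps these 4 windows.

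The Col1a2 window held 2 GC boxes, 205 and 188 bases before the start, a CAGAC 175 bases before it and a CCAAT 109 bases before it. The Col3a1 window had a TATAAA 117 bases before the start, CAGAC at 239 bases and its reverse complement at 64, and no GC box. Mmp14 had 2 reverse CCAAT matches (69 and 23 bases before the start) and 2 GC boxes (19 and 13 bases), the CCAAT at 23 sharing its last base with the GC box at 19. Tgfb1 had 5 GC boxes and none of the other motifs. Over all 32851 windows of the same length in the table, 32.7% held a GC box, 33.8% a CCAAT, 42.2% a CAGAC and 12.4% a TATAAA on either strand; among the 25 members' windows the counts were 14, 8, 10 and 3. The chains of type IV collagen start head to head on chromosome 8: the annotated starts of Col4a2 (11312805, plus strand) and Col4a1 (11312826, minus strand) overlap by 22 bases, which read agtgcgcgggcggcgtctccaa on the plus strand. A match is a description of the letters, not a bound site.

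The interquartile range of the values of an array, a measure of how widely its signals spread, ran from 2.78 to 3.63 over the 48 arrays. On 5% protein the 10 arrays averaged 3.48 ± 0.13 (SD), on 60% protein the 6 arrays 3.16 ± 0.20 (SD). The falls below were fitted with and without this range as a term of the model. The range moves with the protein share, so its part and that of diet cannot be fully told apart. A single mouse also stood apart in several ways: the Medium 14/29/57 mouse had the lowest mean of 8 hepatocyte markers (11.35, against 11.76 to 12.22 in the other 47 mice) and the highest value of all 12 macrophage markers (list mean 10.55, against 5.43 to 8.24). The stellate cell genes Lrat (mean 6.69 ± 0.49, SD, n = 48) and Reln (7.40 ± 0.42) were measured in every liver.

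Some matrix genes fell with the protein share of the diet, and most others had negative slopes that did not pass. Over the 48 mice 36 of the 37 members had a negative protein slope, the log2 change when protein takes 10 points of the diet, evenly from carbohydrate and from fat. Of these 8 fell past the threshold and 0 rose: Col1a1, Col1a2, Col5a1, Col4a1, Col4a2, Col6a1, Mmp14 and Tgfb1. Over all 16926 genes tested, 3.65% fell and 3.37% rose (7.01% in either direction); rises made 48.0% of those calls, 31.1% with arrays centred on their medians and 57.0% with quantile normalization. With the diet combination as a random block 4 of the 8 passed (3.72% of all genes in either direction): Col4a2, Col6a1, Mmp14 and Tgfb1, while Col1a1 had an adjusted p of 0.0511. Levels did not fall at every step: the mean of Col1a1 was 3.55 at 33% protein and 3.92 at 42%, and Lum (5.16) and Sparc (6.27) had their highest means at 42%. The median slope of the members was -0.13, against -0.0019 over all genes, of which 51.2% were negative. At an unadjusted p under 0.05 there were 24 members, and 26.6% of all genes. With the interquartile range in the model 0 members passed, by limma as before, and 0.668% of all genes did. An unadjusted p under 0.05 was found for 3 members and for 10.4% of all genes in that fit. The median slope of the members was -0.05 with 32 of 37 negative, against 48.1% of all genes.

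**Figure D1:**
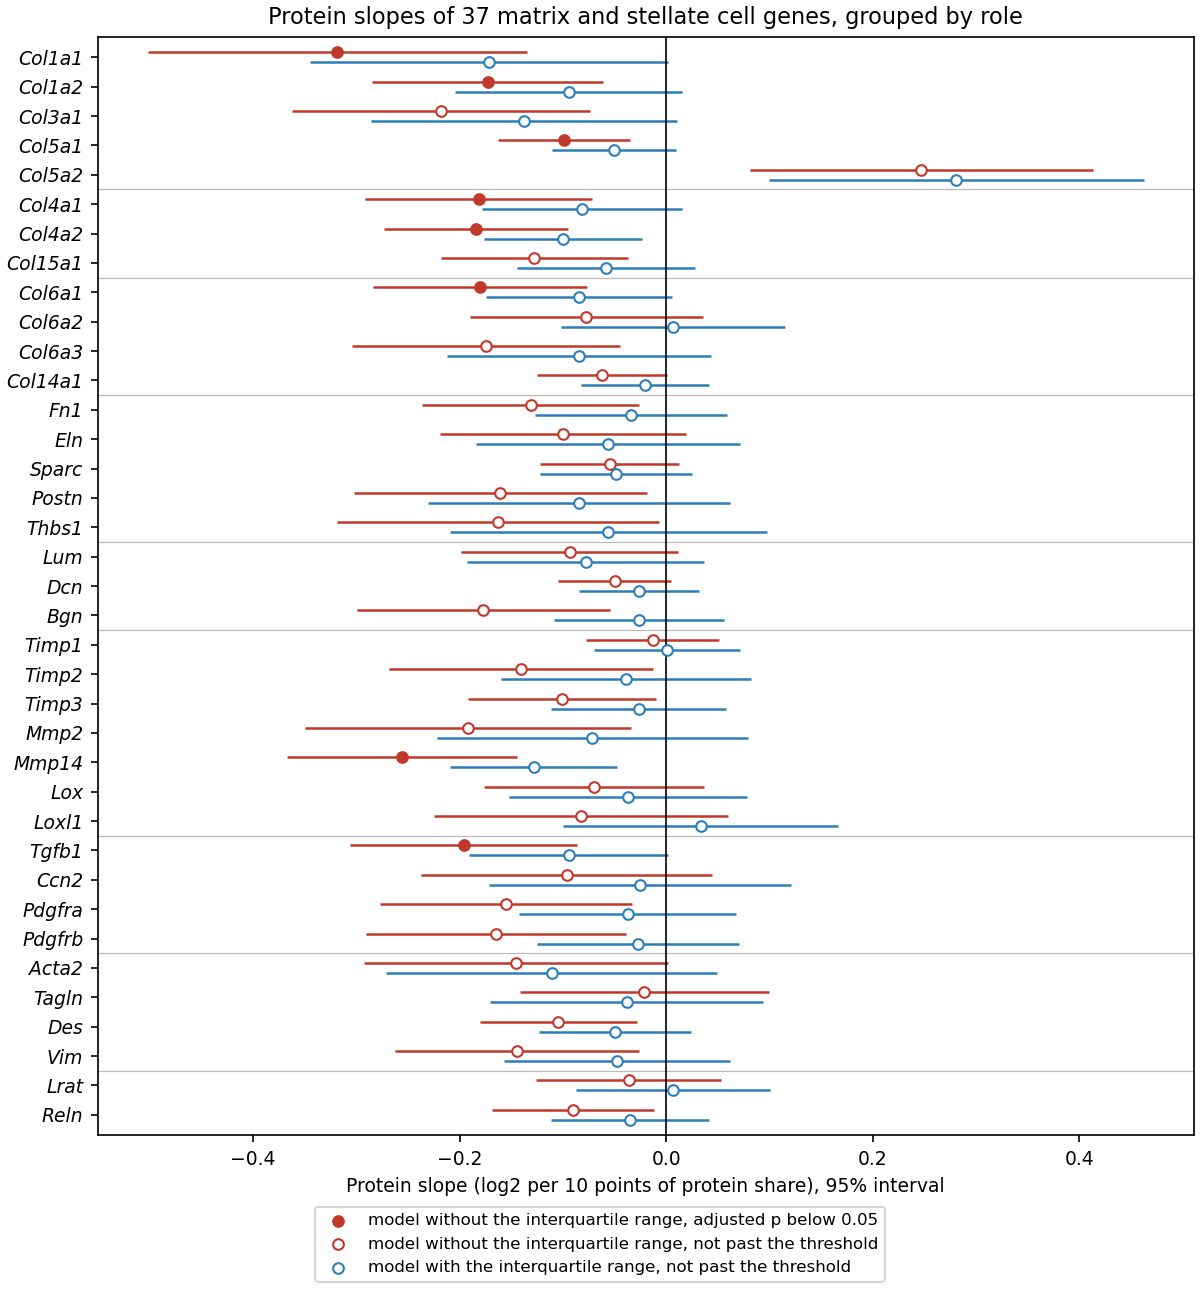
Protein slope of each of the 37 genes (x axis, log2 change per 10 points of protein share) with its 95% interval, fitted without (red) and with (blue) the interquartile range of the array as a term; filled points have an adjusted p below 0.05 and grey lines part the roles. All but Col5a2 lie left of 0 without the term, and with the term Col5a2 (0.28) stays apart while no point is filled.

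The fibrillar collagens carried the largest slope. Col1a1, the main chain of type I collagen, had values from 3.46 to 7.42 (median 4.78) in the 10 mice on 5% protein. At 60% protein its 6 values ran from 2.88 to 4.07 (median 3.25), and 8 of the 10 low protein mice lay above all of them. The slope of Col1a1 was -0.32 ± 0.09 (SE, adjusted p = 0.0278). On the fitted straight line the 55 points between 5% and 60% make a 3.37-fold lower level. The means measured at 5% and 60% differed by 1.47 log2. Its partner Col1a2 ran from 4.30 to 6.49 (median 4.50) at 5% and from 3.47 to 4.33 (median 3.80) at 60%, with a slope of -0.17 ± 0.06 (adjusted p = 0.0479). The ranges of both chains overlapped between the extreme diets, for Col1a2 by 1 mouse at 5%. Col3a1, the type III chain laid down beside type I, ran from 3.76 to 7.39 (median 5.13) at 5% and from 3.67 to 4.13 (median 4.01) at 60%, and its slope of -0.22 ± 0.07 missed the threshold (adjusted p = 0.0523).

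Type V collagen, which sets the diameter of type I fibrils, gave opposite values for its chains. Col5a1 had a slope of -0.10 ± 0.03 (adjusted p = 0.0466), from a median of 3.56 (3.23 to 4.20) at 5% protein to 2.94 (2.69 to 3.55) at 60%. Col5a2 was the 1 member with a positive slope, 0.25 ± 0.08 (adjusted p = 0.0552). Its 5 highest values, all among the 20 mice on 33% protein or more, were 4.59 (Low 60/20/20 replicate 2), 4.94 (High 60/20/20 replicate 1), 5.06 (Medium 33/20/47 replicate 3), 5.84 (Medium 42/29/29 replicate 2) and 6.07 (Medium 33/47/20 replicate 1). The next mouse stood at 3.59, and none of the 28 mice below 33% protein exceeded 3.14. Col5a2 was thus high in a few mice, not in all, on the protein-rich diets. The slope with the interquartile range in the model was 0.28 ± 0.09 (adjusted p = 0.155).

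**Figure D2:**
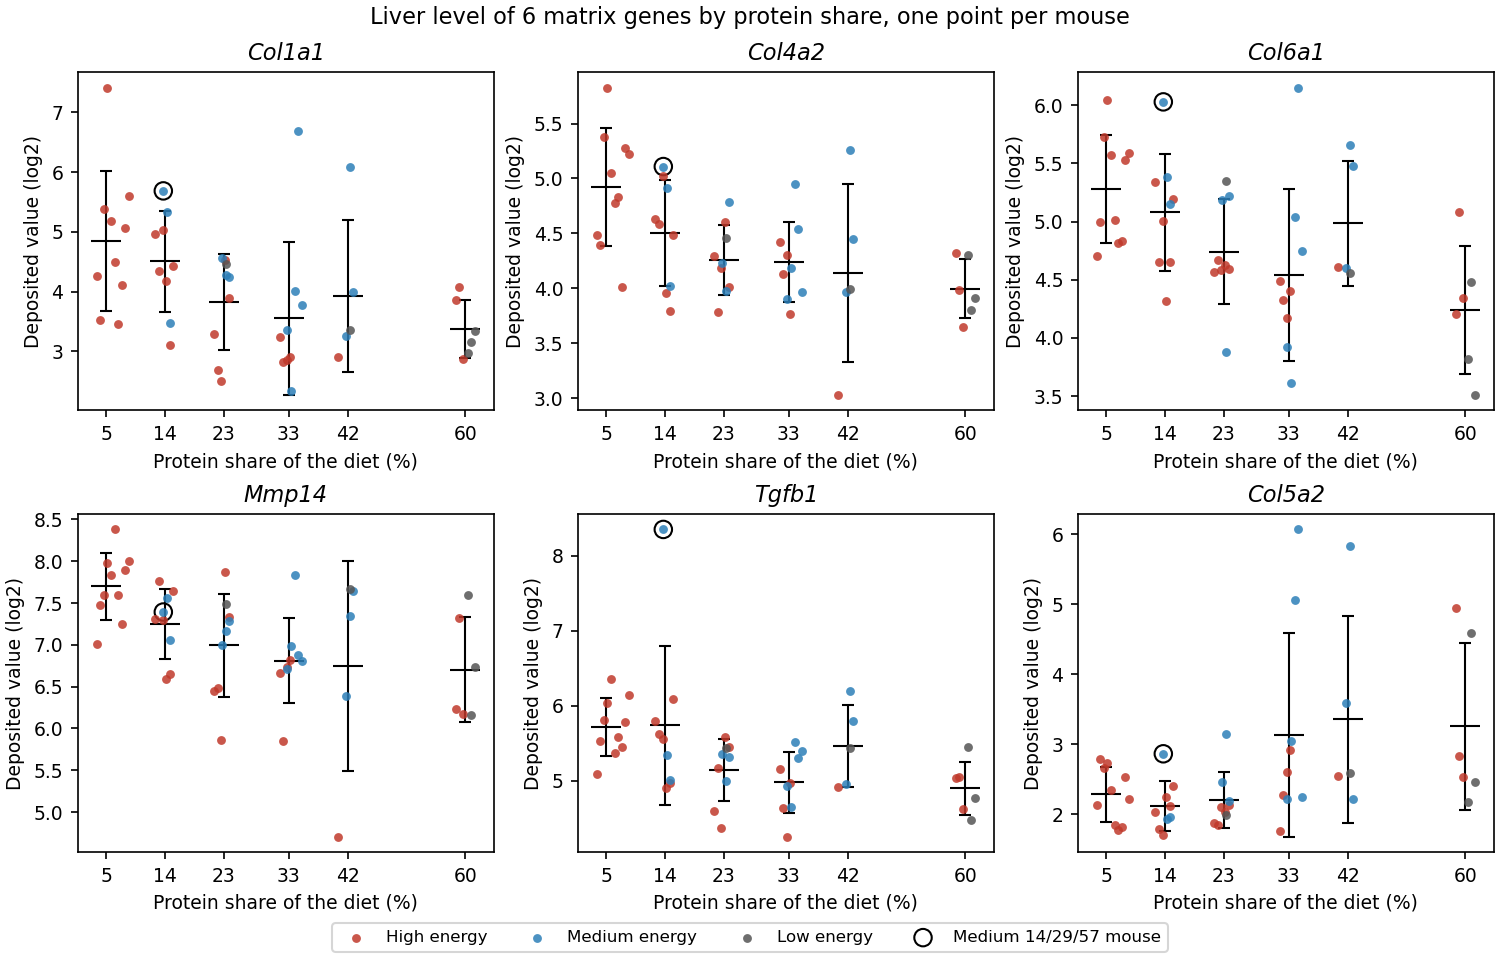
Deposited log2 value (y axis) of 6 members by protein share of the diet (x axis), one point per mouse coloured by energy level and set slightly apart for legibility; black bars are the mean ± SD at each share and the ring marks the Medium 14/29/57 mouse. Col1a1, Col4a2, Col6a1, Mmp14 and Tgfb1 are highest at 5% or 14% protein with wide overlap between shares, whereas Col5a2 has 5 high mice, all at 33% protein or more.

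Both type IV chains, the sheet of the basement membrane, fell together. Col4a1 went from a median of 5.43 (4.84 to 6.79) at 5% to 4.64 (4.17 to 5.17) at 60%, with a slope of -0.18 ± 0.05 (adjusted p = 0.0357). Col4a2 went from 4.94 (4.01 to 5.83) to 3.95 (3.65 to 4.32), with a slope of -0.18 ± 0.04 (adjusted p = 0.00917). That is a 2.02-fold lower level over 55 points on the fitted line, where the measured means differed by 0.93 log2. For Col4a2, 9 of 10 mice on 5% protein lay above every mouse on 60%. Col15a1, a basement membrane zone collagen, had a slope of -0.13 ± 0.05 that did not pass (adjusted p = 0.0693). Among the type VI chains Col6a1 fell (-0.18 ± 0.05, adjusted p = 0.0269; medians 5.27 at 5% and 4.28 at 60%). Col6a3 (-0.17 ± 0.06, adjusted p = 0.0828) and Col6a2 (-0.08 ± 0.06, adjusted p = 0.372) did not pass, nor did the fibril-associated Col14a1 (-0.06 ± 0.03, adjusted p = 0.191).

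None of the 5 glycoproteins and elastic fibre genes passed, and all 5 slopes were negative. They were Fn1, the fibronectin gene (-0.13 ± 0.05, adjusted p = 0.105), Postn, which encodes periostin (-0.16 ± 0.07, adjusted p = 0.140), Thbs1, whose product can activate latent TGF-beta (-0.16 ± 0.08, adjusted p = 0.169), Eln, the elastin gene (-0.10 ± 0.06, adjusted p = 0.268) and Sparc, a collagen-binding matricellular protein (-0.05 ± 0.03, adjusted p = 0.283). The small leucine-rich proteoglycans, which coat collagen fibrils, also gave 0 calls among 3: Bgn (-0.18 ± 0.06, adjusted p = 0.0641), Lum (-0.09 ± 0.05, adjusted p = 0.240) and Dcn (-0.05 ± 0.03, adjusted p = 0.231). Dcn varied little, from 9.11 to 10.72 over all 48 mice.

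Of the 7 proteases, inhibitors and crosslinkers only Mmp14 passed, and of all 37 members it had the smallest p. Mmp14 encodes a membrane-bound protease that cleaves collagen and activates the gelatinase encoded by Mmp2. Its 10 values at 5% protein ran from 7.004 to 8.380 (median 7.72) and its 6 values at 60% from 6.16 to 7.60 (median 6.48). The slope was -0.26 ± 0.06 (adjusted p = 0.00429), a 2.65-fold lower level over 55 points on the fitted line. The measured means at 5% and 60% differed by 0.999 log2. The lowest value of Mmp14, 4.71, came from the single High 42/29/29 mouse, whose array had the smallest interquartile range (2.78). Mmp2 itself had a slope of -0.19 ± 0.08 (adjusted p = 0.113). The inhibitors Timp2 (-0.14 ± 0.06, adjusted p = 0.150), Timp3 (-0.10 ± 0.05, adjusted p = 0.148) and Timp1 (-0.01 ± 0.03, adjusted p = 0.815) did not pass. Neither did Lox (-0.07 ± 0.05, adjusted p = 0.391) and Loxl1 (-0.08 ± 0.07, adjusted p = 0.454), which crosslink collagen and elastin. Timp1 and Lox had low levels in most livers, with medians of at most 1.44 at every protein share.

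Among the 4 signalling genes Tgfb1 fell. Its values ran from 5.09 to 6.36 (median 5.68) at 5% protein and from 4.48 to 5.45 (median 4.90) at 60%, and 8 of 10 low protein mice lay above all 6 mice on 60%. The slope of Tgfb1 was -0.20 ± 0.05 (adjusted p = 0.0244), and -0.16 (adjusted p = 0.0193) without the Medium 14/29/57 mouse, whose 8.35 was the highest of the 48. Ccn2, a matrix signal that TGF-beta induces, did not pass (-0.10 ± 0.07, adjusted p = 0.370). The PDGF receptors, of which Pdgfrb is the main one of stellate cells, had slopes of -0.16 ± 0.06 for Pdgfra (adjusted p = 0.0994) and -0.16 ± 0.06 for Pdgfrb (adjusted p = 0.0894).

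No cytoskeletal gene and no stellate cell marker passed. Acta2, the marker of stellate cell activation, had a slope of -0.15 ± 0.07 (adjusted p = 0.192), Vim, the vimentin gene of mesenchymal cells, -0.14 ± 0.06 (adjusted p = 0.110), Des, the desmin gene of quiescent and active stellate cells, -0.10 ± 0.04 (adjusted p = 0.0765) and Tagln, a smooth muscle actin-binding protein, -0.02 ± 0.06 (adjusted p = 0.842). Lrat stood at -0.04 ± 0.04 (adjusted p = 0.613), with medians of 6.86 (6.16 to 7.46) at 5% and 6.58 (5.56 to 7.16) at 60%. Reln, a secreted glycoprotein that stellate cells express, stood at -0.09 ± 0.04 (adjusted p = 0.133). Whether the collagen slopes differ from those of Lrat or Acta2 was not tested.

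The mice were not alike within a diet, and a few livers were high for many members at once. The Medium 14/29/57 mouse, among the top 3 for 15 members, is described separately. High 5/48/48 replicate 1 held the highest value of 17 of the 37 members and was among the top 3 for 29, Col1a1 (7.42), Col3a1 (7.39) and Mmp2 (6.39) among them. Medium 42/29/29 replicate 2 was among the top 3 for 25 (Col1a1 6.10, Col3a1 7.01, Acta2 7.91), and Medium 33/47/20 replicate 1 for 11 (Col1a1 6.68, Mmp2 5.89). High 5/48/48 replicate 1 also had the highest list means of 5 smooth muscle markers (4.02, against 2.79 to 3.89 in the other mice) and of 13 portal fibroblast and mesothelial markers (3.17, against 2.08 to 2.92). Medium 42/29/29 replicate 2 was the next highest in both lists (3.89 and 2.92), but Medium 33/47/20 replicate 1 ranked 21 and 18 (3.39 and 2.40). High 5/48/48 replicate 1 was also highest for 17 basement membrane and other collagen genes (4.61) and 15 TGF-beta pathway genes (5.42). Medium 42/29/29 replicate 2 was highest for 10 collagen processing and crosslinking genes (5.08) and 5 cholangiocyte markers (3.96). The part of these markers in the result was not tested. Without these 3 mice and the Medium 14/29/57 mouse, a choice made after seeing the values, 12 members fell and 1 rose (Col5a2, slope 0.21, adjusted p = 0.0408), with 6.35% of all genes called; Col1a1 stood at -0.31 (adjusted p = 0.00438) and Col3a1 at -0.24 (adjusted p = 0.00205).

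**Figure D3:**
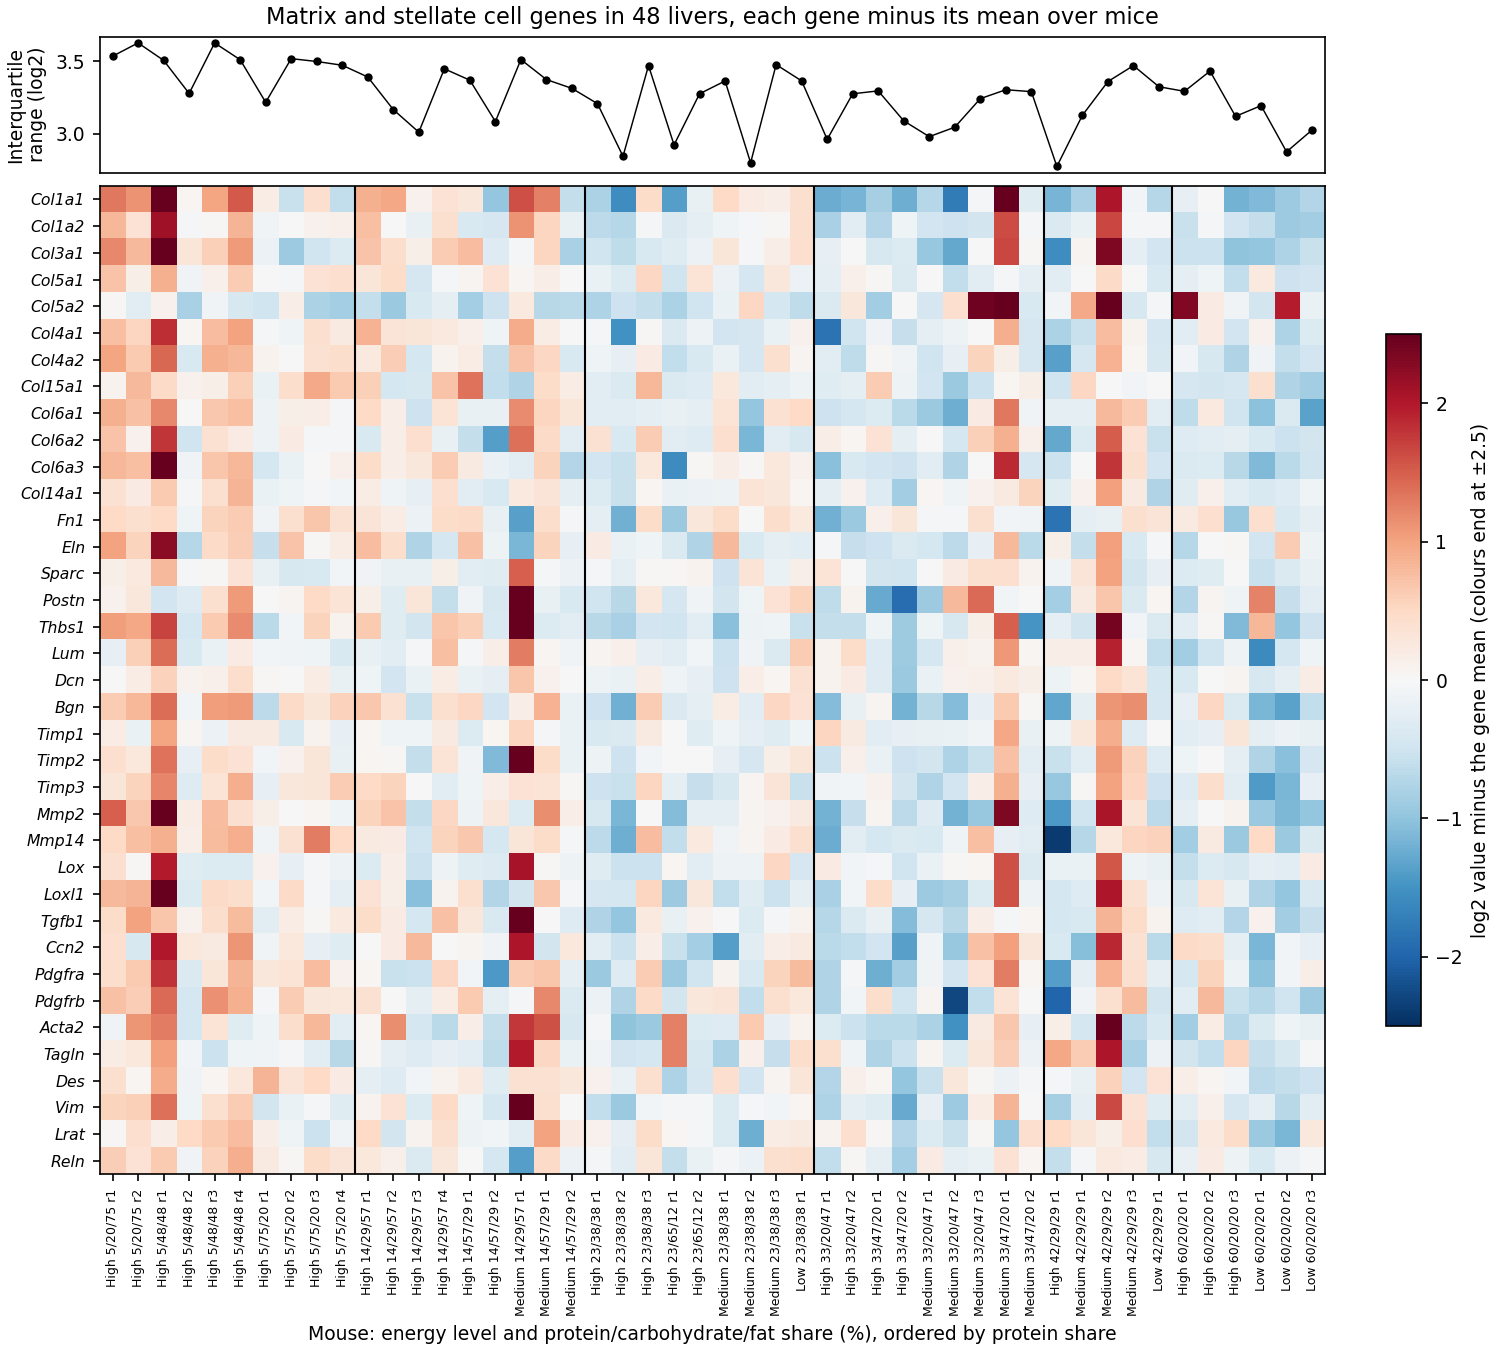
Value of each of the 37 genes minus its mean over the 48 mice (colour, log2, blue below and red above the mean), with one column per mouse ordered by protein share and black lines between shares; the upper panel gives the interquartile range of each array. Columns that are red from top to bottom are single livers high for most members, such as High 5/48/48 replicate 1 and Medium 42/29/29 replicate 2, and the 6 columns at 60% protein are mostly blue.

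The count of 8 depended on single mice. The count over all genes moved with it. It was 17 without High 60/20/20 replicate 2, with 17.7% of all genes called in either direction against 7.01%. It was 4 without High 60/20/20 replicate 3 (3.66%) or High 42/29/29 replicate 1 (3.47%), and 5, with 4.29% to 6.07% of all genes, without any one of High 5/20/75 replicate 1 or 2, High 5/48/48 replicate 1, 3 or 4, or Low 23/38/38 replicate 1. Over the 48 fits that each left out a mouse, Mmp14, Col4a2 and Tgfb1 kept their calls in all 48; Col6a1 lost it in 1, Col1a1 in 2, Col4a1 in 7, Col5a1 in 24 and Col1a2 in 32. Without the Medium 14/29/57 mouse 11 members fell, against 4.16% of all genes (7.62% in either direction): Col3a1 (-0.23), Col15a1 (-0.14), Fn1 (-0.16) and Reln (-0.12) were added and Col1a2 (adjusted p = 0.0609) was lost. With the interquartile range as a term and without that mouse, 0 members passed by limma, and 1.15% of all genes did. An unadjusted p under 0.05 was found for 6 members and for 11.7% of all genes in that fit. Averaging a gene's probe sets ended 3 calls: the slopes of Col1a2 (-0.10, adjusted p = 0.0736), Col6a1 (-0.10, adjusted p = 0.0653) and Col5a1 (-0.03, adjusted p = 0.359) no longer passed. The other probe set of Col5a1 correlated with the one used at -0.38 over the 48 mice.

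The scale and the range of protein changed the counts. On the log2 scale of the protein share, where each doubling counts alike, 23 of 37 members fell, against 21.6% of all genes called in either direction in that fit, and 0 passed with the interquartile range added. Without the 10 mice on 5% protein 0 members passed, 34 of 37 slopes were negative and the median slope was -0.07; 0.0827% of all genes passed in that fit, which held fewer mice and a narrower range of protein. At high energy, all 37 members had a higher mean at 5% than at 14% protein, with a median difference of 0.37, while 47.5% of all genes had a lower one. None passed the threshold by limma, and 0.425% of all genes did. An unadjusted p under 0.05 was reached by 8 members and by 11.7% of all genes. The largest difference was that of Pdgfra, 0.97 ± 0.31 (adjusted p = 0.198). With the interquartile range in the model 28 of 37 were higher at 5%, with a median difference of 0.17.

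The members also rose with the interquartile range of the array itself. For 27 of 37 the slope on it was positive past the threshold in the model that held diet too, and for 0 it was negative; 30.6% of all genes rose with it and 23.9% fell. The steepest were Bgn (2.56 ± 0.28 log2 per unit of range), Col1a1 (2.50), Pdgfrb (2.33) and Mmp14 (2.16). Tagln (-0.29), Sparc (0.11), Timp1 (0.24), Lum (0.26) and Dcn (0.40) were among the 10 that did not pass. With the range in the model the slopes of the 8 called members were smaller in size: Mmp14 stood at -0.13 ± 0.04 (adjusted p = 0.146), Col4a2 at -0.10 ± 0.04 (0.273), Col1a1 at -0.17 ± 0.09 (0.486), Tgfb1 at -0.09 ± 0.05 (0.492), Col6a1 at -0.08 ± 0.04 (0.523), Col1a2 at -0.09 ± 0.05 (0.578), Col4a1 at -0.08 ± 0.05 (0.593) and Col5a1 at -0.05 ± 0.03 (0.594). The range moves with the protein share, so both terms share part of what they describe. It is also computed from the values of these same arrays. With the low-value filter at the 50th percentile, the slope on the range passed for 27 of 35 members. In either direction 57.4% of all genes passed in that fit. How far the level of a gene bears on this slope was not tested.

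**Figure D4:**
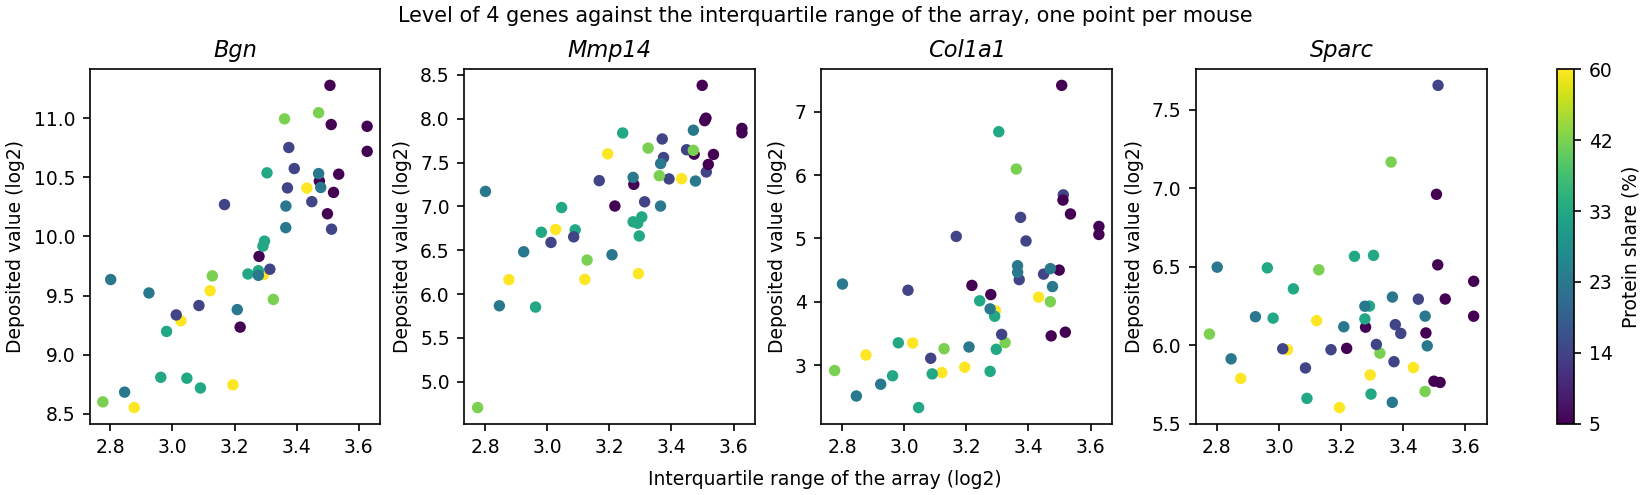
Deposited log2 value (y axis) of Bgn, Mmp14, Col1a1 and Sparc against the interquartile range of the array (x axis, log2), one point per mouse coloured by the protein share of the diet. Bgn and Mmp14 rise with the range across all protein shares, Col1a1 more loosely, and Sparc shows no clear slope (0.11 log2 per unit).

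Which nutrient protein replaced was examined next. With protein in place of fat, 7 members fell and 0 rose, against 2.32% of all genes falling and 1.93% rising (4.25% in either direction): Col4a2 (-0.23 ± 0.05 per 10 points, adjusted p = 0.0100), Mmp14 (-0.26 ± 0.07, adjusted p = 0.0176), Tgfb1 (-0.25 ± 0.06, adjusted p = 0.0195), Col1a1 (-0.39 ± 0.11, adjusted p = 0.0289), Col6a1 (-0.20 ± 0.06, adjusted p = 0.0429), Col3a1 (-0.28 ± 0.08, adjusted p = 0.0437) and Col4a1 (-0.21 ± 0.06, adjusted p = 0.0479). With protein in place of carbohydrate only Mmp14 fell (-0.25 ± 0.06, adjusted p = 0.0231), against 0.727% of all genes falling and 1.55% in either direction; with the diet combination as a random block that call was lost (0 members, 0.49% of all genes). Col1a1 stood at -0.25 ± 0.10 (adjusted p = 0.161). The difference between these exchanges is the exchange of carbohydrate for fat, for which 0 members and 0% of all genes passed. By limma 1 member had an unadjusted p under 0.05 there, Sparc (-0.09 ± 0.04), against 3.93% of all genes. In that exchange 31 of 37 slopes were negative, with a median of -0.05. With the interquartile range as a term 0 members passed for fat (0.502% of all genes), 0 for carbohydrate (0.154%) and 0 for the exchange of the pair (0%). By limma 7, 3 and 2 members then had an unadjusted p under 0.05, against 11.9%, 7.65% and 5.92% of all genes. The count of 7 for fat was 12 without High 60/20/20 replicate 2 (10.2% of all genes called in either direction, against 4.25%), 11 without Medium 42/29/29 replicate 2 (5.07%), 3 without High 5/20/75 replicate 1 (1.51%) and 1 without High 5/20/75 replicate 2 (1.32%). It was 4, with 2.66% to 3.91% of all genes, without any one of High 60/20/20 replicate 3, High 42/29/29 replicate 1, High 33/47/20 replicate 2, High 23/65/12 replicate 1, High 14/29/57 replicate 1 or 4, High 5/48/48 replicate 1, 3 or 4, Low 23/38/38 replicate 1 or Medium 33/47/20 replicate 2. The count of 1 for carbohydrate was 8 without High 60/20/20 replicate 2 (9.65% of all genes, against 1.55%). It was 0 without High 5/75/20 replicate 3 (0.733%) or High 42/29/29 replicate 1 (0.656%), and 2, with 2.14% to 5.41% of all genes, without High 60/20/20 replicate 1, High 14/57/29 replicate 2, Low 60/20/20 replicate 1 or the Medium 14/29/57 mouse.

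The 5% protein diets differed in carbohydrate and fat, and their mice are given here as a description chosen after seeing the values. Col1a1 was 4.26, 3.52, 4.50 and 3.46 in the 4 mice on the carbohydrate-rich High 5/75/20 diet. It was 7.42, 4.11, 5.06 and 5.60 on High 5/48/48 and 5.39 and 5.19 on the fat-rich High 5/20/75. Col3a1 was 4.54, 3.76, 4.17 and 4.34 on 5/75/20, 7.39, 4.99, 5.26 and 5.74 on 5/48/48 and 5.87 and 5.49 on 5/20/75, so that all 4 mice on the carbohydrate-rich diet lay below the other 6. Mmp2 and Sparc were also parted, but narrowly. The highest value on 5/75/20 and the lowest among the other 6 mice were 3.70 and 3.75 for Mmp2. For Sparc they were 6.08 and 6.11. In all 3 of 37 members lay wholly lower on 5/75/20 and 0 wholly higher. Of the 16926 genes tested, 181 (1.07%) lay wholly lower and 93 wholly higher. The mean of 33 of 37 members was lowest on 5/75/20, against 34.6% of all genes. The arrays of these diets had mean interquartile ranges of 3.43 (5/75/20), 3.48 (5/48/48) and 3.58 (5/20/75). Col1a1, Col3a1 and Sparc had their highest means on 5/48/48 (5.55, 5.84 and 6.44). Those means include High 5/48/48 replicate 1 (7.42, 7.39 and 6.96), the highest mouse at 5% protein for each of these genes. The part of the range was not tested here.

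Energy level gave no call among the members. High minus medium energy was negative for 33 of 37, with a median difference of -0.28, while 48.0% of all genes were negative. By limma 0 members and 0% of all genes passed, and 8 members had an unadjusted p under 0.05, against 8.13% of all genes. The smallest p belonged to Lox (-0.51 ± 0.18, adjusted p = 0.497) and Col14a1 (-0.30 ± 0.11, adjusted p = 0.497), followed by Postn (-0.64 ± 0.25, adjusted p = 0.504). When diets of matched composition were contrasted 14 members were lower at high energy and 0 higher, against 11.2% of all genes called in either direction. However, 1 of the matched pairs rests on the single Medium 14/29/57 mouse. Without that pair 0 members and 0.00591% of all genes passed, with a median difference of -0.47.

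At 60/20/20 the 3 low energy mice had lower means than the 3 high energy mice for 27 of 37 members. The median difference was -0.17, with 0 calls (0% of all genes). An unadjusted p under 0.05 by limma was found for 3 of the 37 and for 10.1% of all genes. The smallest p belonged to Timp3 (-0.88 ± 0.37, adjusted p = 0.452) and Bgn (-1.02 ± 0.45, adjusted p = 0.464). With the interquartile range in the model 16 of 37 were lower and the median turned to 0.02. The protein slope did not differ past the threshold between high and medium energy for any member (0% of all genes). By limma 3 members and 5.66% of all genes had an unadjusted p under 0.05 for that difference. The smallest p was that of Col6a3 (-0.47 ± 0.19, adjusted p = 0.872).

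The single Medium 14/29/57 mouse lay outside the range of the other 47 mice for 11 of 37 members, a share of 29.7%, against 27.3% of all genes. It was highest for Postn (9.38, others at most 7.01), Timp2 (9.59, others at most 7.30), Tgfb1 (8.35, others at most 6.36), Vim (10.27, others at most 9.02), Sparc (7.66, others at most 7.17), Thbs1 (5.83, others at most 5.53), Dcn (10.72), Lox (3.53) and Ccn2 (6.86). It was lowest for Eln (1.27, others at least 1.65) and Reln (6.01, others at least 6.55). Col1a1 (5.69), Col3a1 (4.65) and Mmp14 (7.39) were within the others' range, and Fn1 was the next to lowest (10.09). Against the 4 High 14/29/57 mice it was above all 4 for 22 members and below all 4 for 6, while 30.4% of all genes lay above and 31.3% below. All 12 macrophage markers were at their highest in this mouse, and in the other 47 mice the mean of that list did not exceed 8.24. The Medium 14/29/57 mouse also had the highest list means of 10 endothelial markers (7.65, others at most 7.45) and 11 matrix proteases (5.23, others at most 3.98). For 5 smooth muscle markers it had the lowest list mean (2.79, others at least 2.86), though only 1 of the 5 was itself lowest there. The contractile members Acta2 (7.08) and Tagln (6.36) each ranked 2 from the highest in this mouse, above all 4 High 14/29/57 mice. High 5/48/48 replicate 1, high for most members, ranked 25 for the macrophage list. The part of these markers in the result was not tested.

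**Figure D5:**
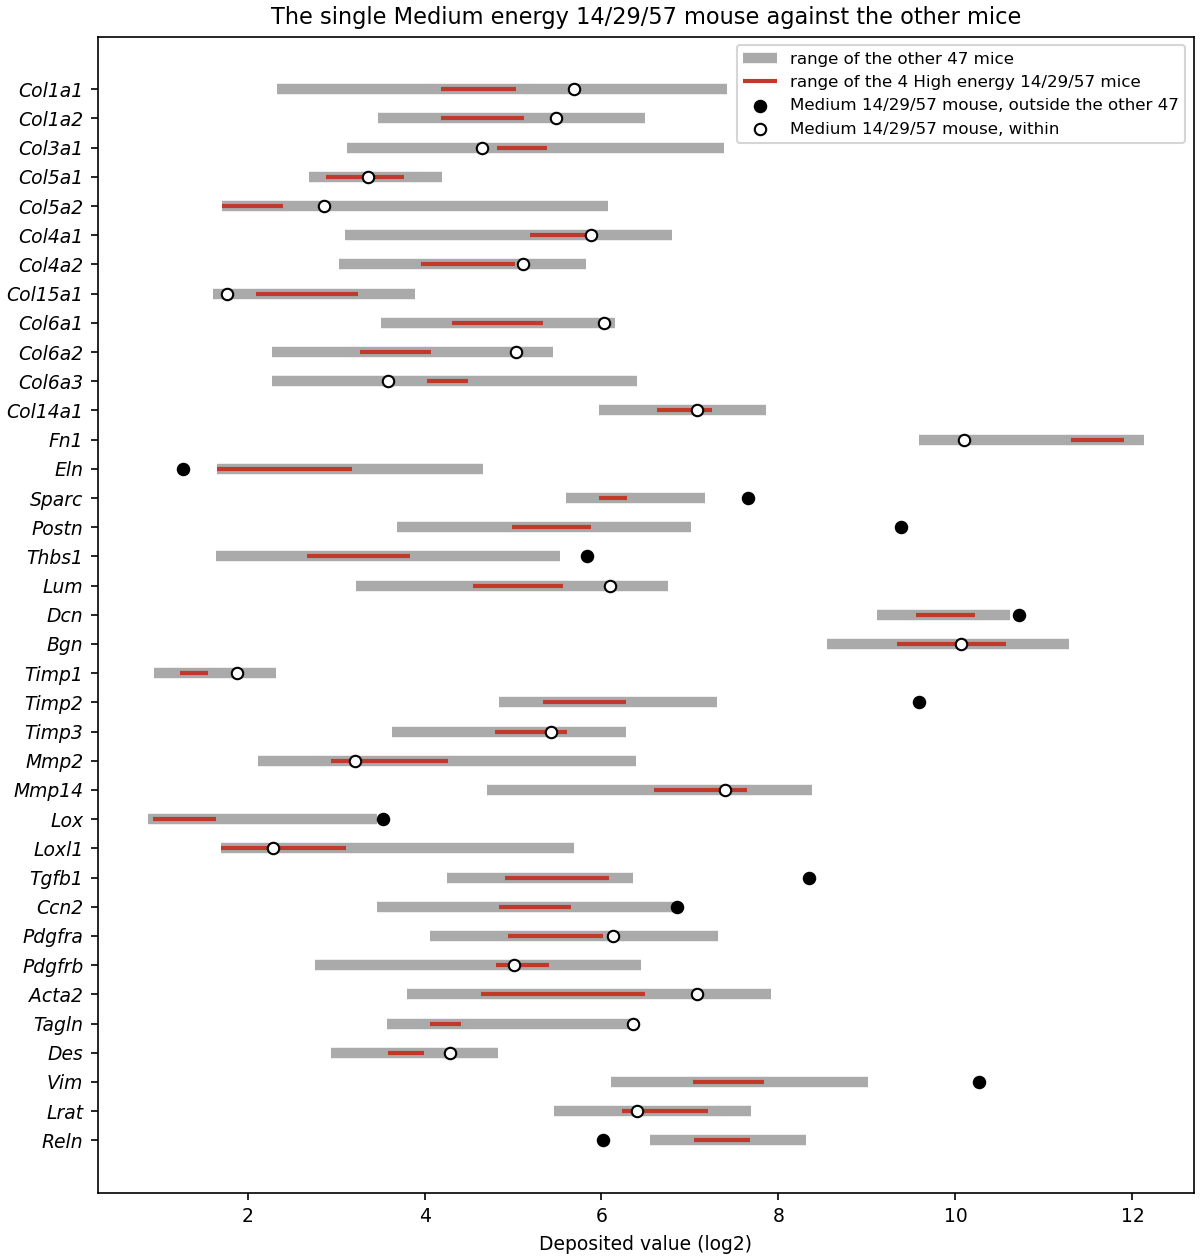
Deposited log2 value of each member in the Medium 14/29/57 mouse (points; filled where outside the other mice) with the range of the other 47 mice (grey) and of the 4 High 14/29/57 mice (red). Timp2, Postn, Tgfb1 and Vim lie farthest above the grey bars, Eln and Reln below them.

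Several collagen pairs correlated over mice, and Col5a2 had a median r of 0.20 with the other members. Among all 666 pairs of members the median r was 0.51 and 345 had r above 0.5. An r near 0.5 is thus usual for 2 members, and pairs of genes outside the list were not examined. Of 12 pairs of members, 11 correlated past the threshold by Pearson r and 10 by Spearman rho over 48 mice (two-sided permutation tests, adjusted over the 12 pairs). Col1a1 and Col1a2, chains of the same molecule, had Pearson r = 0.89 (permutation p = 1e-05, the smallest possible; adjusted p = 1.71e-05), and a Spearman rho of 0.82 (permutation p = 1e-05; 2.4e-05 after adjustment). Dropping the 2 mice most distant from the Col1a1 median left r = 0.83. Col1a1 and Col3a1 had r = 0.86 and rho = 0.77 (r = 0.80 without 2 mice), Col4a1 and Col4a2 r = 0.73 and rho = 0.76 (0.73), and Lum and Dcn r = 0.76 and rho = 0.68 (0.75), each with a permutation p of 1e-05 for both. Col6a1 and Col6a2 had r = 0.61 (permutation p = 1e-05) and rho = 0.52 (permutation p = 0.0002), and r = 0.53 without 2 mice. Acta2 and Tagln, both contractile genes, had r = 0.70 (permutation p = 1e-05) and rho = 0.50 (permutation p = 0.0005), and r = 0.52 without 2 mice.

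Col1a1 also followed Tgfb1 (r = 0.66, rho = 0.75, permutation p = 1e-05 for both; r = 0.74 without 2 mice). It followed Sparc (r = 0.53, permutation p = 0.00014; rho = 0.37, permutation p = 0.00997; r = 0.44 without 2 mice) and Timp1 (r = 0.58, permutation p = 6e-05; rho = 0.35, permutation p = 0.0155; r = 0.36 without 2 mice) too. For Lum the rank correlation with Col1a1 did not pass (r = 0.57, permutation p = 4e-05; rho = 0.26, permutation p = 0.0787, adjusted p = 0.0859; r = 0.43 without 2 mice). Lrat and Reln had r = 0.37 (permutation p = 0.0110, adjusted p = 0.0120) and rho = 0.40 (permutation p = 0.00578; r = 0.38 without 2 mice). Col1a1 and Lrat gave r = 0.15 (permutation p = 0.299) and rho = 0.18 (permutation p = 0.212), so that the collagen gene and the vitamin A gene of stellate cells showed no relation past the threshold. On residuals of the model with diet, energy and the interquartile range, 10 of the 12 pairs passed by r and 8 by rho, with Col6a1 and Col6a2 and Col1a1 and Lum lost by rho (0.23 each, adjusted p = 0.146): Col1a1 with Col1a2 r = 0.81, with Col3a1 0.79 and with Tgfb1 0.33, Col4a1 with Col4a2 0.41, Acta2 with Tagln 0.75, whereas Lrat with Reln (0.22, adjusted p = 0.139) and Col1a1 with Lrat (-0.13, adjusted p = 0.382) did not. Over all 666 pairs of members the median r was 0.51, from -0.47 (Fn1 with Tagln) to 0.90 (Timp2 with Vim), and 0.35 on residuals; these pairs share arrays and are given as a description.

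Other genes of the matrix and of stellate cells were read from lists that hold no member. Over all genes tested 3.65% fell with protein and 3.37% rose. A single call in a list of 15 or 17 genes is not far above that share. Of 17 basement membrane and other collagen genes 5 fell with protein and 0 rose, with a median slope of -0.07; Nid1 (-0.31 ± 0.06, adjusted p = 0.00276) and Nid2 (-0.20 ± 0.06, adjusted p = 0.0299), the nidogens that link laminin to type IV collagen, Hspg2 (-0.22 ± 0.05, adjusted p = 0.00602), the perlecan gene, and Lamc1 (-0.22 ± 0.06, adjusted p = 0.0306), a laminin chain, were 4 of them. In the TGF-beta pathway 1 of 15 fell, Tgfbi, a matrix protein induced by TGF-beta (-0.18 ± 0.04, adjusted p = 0.00712); Smad3 (-0.15 ± 0.05, adjusted p = 0.0548) and Tgfbr3 (-0.14 ± 0.05, adjusted p = 0.0612) missed the threshold. Of 17 other stellate cell markers 1 fell, Cygb, a globin of stellate cells (-0.21 ± 0.06, adjusted p = 0.0165), and the median was -0.04. None of 10 genes of collagen processing and crosslinking (smallest p for P4ha1, a proline hydroxylase, -0.14 ± 0.05, adjusted p = 0.0713) and none of 11 other matrix proteases (Adamts1, -0.13 ± 0.05, adjusted p = 0.0973) passed. In these 5 lists 0 genes passed once the interquartile range was a term, against 0.668% of all genes.

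Markers of the other liver cells gave few calls, where 7.01% of all genes were called in either direction. For protein 0 genes passed among 13 portal fibroblast and mesothelial, 5 smooth muscle, 10 endothelial, 12 macrophage, 10 lymphocyte and 5 cholangiocyte markers, with median slopes of -0.02, -0.09, -0.08, -0.11, -0.09 and -0.04. All 12 macrophage markers, 9 of 10 endothelial markers and 9 of 10 lymphocyte markers had negative slopes, as the members did; their part in the result was not tested. Of 8 hepatocyte markers Cps1, the entry enzyme of the urea cycle, rose (0.15 ± 0.02, adjusted p = 1.57e-05) and did so with the interquartile range in the model too (0.14, adjusted p = 0.000773).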

How the data were processed

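Liver RNA of 48 mice was measured, 1 Affymetrix array per mouse. The table was used as the authors deposited it. Neither its unit nor its normalization was given in the sources used here; deposited values between -0.51 and 13.42 were taken to be on a log2 scale. For arrays, precision is limited by how many there are.

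Of 41345 probe sets, 23521 carried a single gene symbol in the platform annotation, which named several for 1814 and did not list 16010. The brightest single-symbol probe set stood for each of 22180 genes. Tests covered the 16926 whose mean exceeded 1.17, the 30th percentile over probe sets.

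Models were fitted in R 4.3.3 with limma 3.58.1, by lmFit and a trended eBayes. Terms were protein share, carbohydrate against fat, and energy level; single combinations were contrasted in a cell means model of all 20. Two-sided p-values were adjusted over the 16926 genes (Benjamini-Hochberg, threshold 0.05). A second fit added each array's interquartile range. Correlations were permuted 100000 times (Python 3.11.15, numpy 2.4.6). The fit was tested on simulated data. The members and gene lists were chosen with earlier results of these data known. All 37 measured members are named; from the other lists, up to 4 genes with the smallest p.

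Promoter windows, the 250 bases before a start, are from RefSeq on GRCm38.p6. Alternatives varied the filter, the choice of probe set, scaling, weights, model terms and mice; the closing section gives their effect.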

Additional observations from a re-analysis of the deposited data

Results flagged for a closer look

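In diets with 4 mice, 5 of 111 tests of a gene in a diet had 1 mouse far from the others, by Dixon's ratio of the gap to the range; chance alone gives about 1 in 20. Lox, a collagen crosslinking enzyme, was 3.46 in High 5/48/48 replicate 1, against 1.12 to 1.17 in the other mice of that diet. Mmp14 was 7.25 in High 5/48/48 replicate 2, against 7.89 to 8.01. Mmp2 was 2.95 in High 14/29/57 replicate 3, against 4.07 to 4.27, and Col4a1 was 5.81 in replicate 1 of that diet, against 5.19 to 5.27. Lum was 4.44 in High 5/75/20 replicate 4, against 4.72 to 4.76.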

How the results depend on the processing

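Counts are members called in either direction, with the share of all genes called beside them. The protein slope count of 8 (7.01%) was 21 with array weights (20 fell, Col5a2 rose; 25.4%), 13 with a term for mouse numbers over 300 (12 fell, Col5a2 rose; 9.44%), 5 with the mean of a gene's probe sets (6.95%), 5 with quantile normalization (6.34%), 4 with the diet combination as a random block (3.72%) and 3 without the 12 arrays of smallest interquartile range (1.97%). It was 23 on the log2 scale of protein (21.6%), and 0 without the 10 mice on 5% protein (0.0827%), with the interquartile range as a term (0.668%), with that term and without the Medium 14/29/57 mouse (1.15%), and with that term on the log2 scale (1.28%). It was 13 without 4 mice that stood apart (12 fell, Col5a2 rose; 6.35%); this and the log2 scale with the range were chosen after seeing the data. Leaving out each mouse in turn gave 4 to 17. For protein in place of fat the count of 7 (4.25%) became 19 with array weights (18.7%), 4 with no filter (2.78%), quantile normalization (3.93%), a term for Y-linked minus Xist values (4.03%) or without the 12 arrays (2.14%), 3 with the random block (2.54%) and 0 with the interquartile range, with or without the Medium 14/29/57 mouse (0.502% and 0.733%); leaving out a mouse gave 1 to 12. For protein in place of carbohydrate the count of 1 (1.55%) became 13 with array weights (12 fell, 1 rose; 17.9%), 4 with mouse number (3.44%), 2 without the Medium 14/29/57 mouse (2.94%), and 0 with the random block (0.49%), without the 12 arrays (0.189%), at high energy alone (0.786%) and with the interquartile range, with or without that mouse (0.154% and 0.449%); leaving out a mouse gave 0 to 8. High minus medium energy gave 14 at matched compositions (11.2%). The interquartile range slope gave 8 without the 12 arrays (23.7%). The cause was not tested.

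Slopes near 0 turned positive. Tagln was 0.016 with quantile normalization, 0.0060 without the Medium 14/29/57 mouse and 0.0018 at high energy alone. Timp1 was 0.0044 with array weights, 0.00074 with the interquartile range, 0.0050 with it and without the mouse, 0.015 without 5% protein and 0.0020 without High 5/48/48 replicate 1. With the interquartile range, with it and without the mouse, and with it on the log2 scale, Col6a2 was 0.0066, 0.014 and 0.0050, Loxl1 0.033, 0.023 and 0.022, and Lrat 0.0065, 0.0014 and 0.019; Loxl1 was 0.029 without 5% protein. Leaving out a mouse moved the slope of Timp1 between -0.028 and 0.0020 and that of Tagln between -0.051 and 0.0060. The correlation of Col1a1 with Lrat was -0.13 on residuals. No paired analysis was possible because replicate numbers were given in accession order and pair no mice.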
